A study of Mus musculus with 4 samples.

Results

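The VEGF ligands and receptors are the genes Vegfa, Vegfb, Vegfc and Pgf, which encode ligands, Flt1, Kdr and Flt4, which encode the receptor tyrosine kinases VEGFR1, VEGFR2 and VEGFR3, and Nrp1 and Nrp2, which encode the neuropilin co-receptors. They were chosen by gene family, and all 9 of 9 symbols were found among the 32285 genes of the count tables. Their UMIs (unique molecular identifiers, each standing for 1 captured transcript) were summed in cell classes defined by marker genes, in each of 4 droplet single-cell RNA libraries. The mice were C57BL/6N males, 10 months old, and each library pooled cortex from 4 to 5 of them. The groups were sham surgery given an isotype control antibody, and stroke given that isotype antibody, an antibody against VCAM1 or one against VLA4. Stroke was made by distal occlusion of the middle cerebral artery (dMCAO), and the infarct core with a rim of nearby cortex was taken. All groups received an antibody for 10 weeks. VCAM1 is an adhesion molecule of activated endothelium, and VLA4 is the leukocyte integrin that binds it, so the blockade libraries ask how interrupting that contact bears on the brain's vessels and immune cells after stroke. Cells were stained for CD31 and CD45 and dead cells were excluded, but the fraction sorted into the droplets is not named in the labels.

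VEGF-A acts mainly through VEGFR2, the chief growth, survival and permeability receptor of blood vessel endothelium. VEGFR1 binds VEGF-A, VEGF-B and PlGF (the product of Pgf), and both its membrane form and its soluble form limit the VEGF-A that reaches VEGFR2. UMIs read at the 3′ end were summed per gene here, so the forms were not separated. VEGF-C binds VEGFR3 and, once processed, VEGFR2. Neuropilins are co-receptors shared with the class 3 semaphorins: NRP1 is prominent in arteries and sprouting vessels during development, and NRP2 in veins and lymphatic vessels. In the adult brain VEGF-A is made largely by astrocytes and other parenchymal cells.

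The 3 receptor tyrosine kinases shared one pattern over the cell classes, and Nrp2 had another, so the 250 bases before the start sites of these 4 genes are shown. The sequences are those of RefSeq on GRCm38.p6, read 5′ to 3′ on the coding strand. Capitals mark matches, on either strand, to the letters CCGGAA or to CAGGAA, and likewise to CGGAAG and also to AGGAAG, which overlap each other and hold the core bound by ETS factors, a family that includes endothelial regulators. Flt1 lies on the minus strand with its window at chr5:147726012-147726261, and Kdr on the minus strand at chr5:75978456-75978705. Flt4 lies on the plus strand with its window at chr11:49609429-49609678, and Nrp2 on the plus strand at chr1:62703067-62703316. The GENCODE M21 annotation starts Flt4 at 49609263, upstream of its window. It starts Kdr at 75978458 and Nrp2 at 62703285, inside theirs, so the matches below rest on the RefSeq starts.
Flt1: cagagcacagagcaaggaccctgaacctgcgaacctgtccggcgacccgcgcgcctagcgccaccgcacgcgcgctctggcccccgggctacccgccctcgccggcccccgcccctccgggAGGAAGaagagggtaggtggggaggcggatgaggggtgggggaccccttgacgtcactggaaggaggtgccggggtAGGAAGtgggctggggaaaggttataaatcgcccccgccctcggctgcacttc
Kdr: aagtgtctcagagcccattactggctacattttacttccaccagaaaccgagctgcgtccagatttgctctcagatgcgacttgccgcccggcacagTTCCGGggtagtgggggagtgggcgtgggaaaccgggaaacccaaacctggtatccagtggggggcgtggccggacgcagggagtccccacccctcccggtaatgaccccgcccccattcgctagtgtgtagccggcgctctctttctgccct
Flt4: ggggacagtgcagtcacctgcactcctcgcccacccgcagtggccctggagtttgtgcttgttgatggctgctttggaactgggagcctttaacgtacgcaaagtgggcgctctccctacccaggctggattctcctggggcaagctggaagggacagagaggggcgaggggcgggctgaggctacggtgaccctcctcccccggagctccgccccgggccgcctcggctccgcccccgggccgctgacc
Nrp2: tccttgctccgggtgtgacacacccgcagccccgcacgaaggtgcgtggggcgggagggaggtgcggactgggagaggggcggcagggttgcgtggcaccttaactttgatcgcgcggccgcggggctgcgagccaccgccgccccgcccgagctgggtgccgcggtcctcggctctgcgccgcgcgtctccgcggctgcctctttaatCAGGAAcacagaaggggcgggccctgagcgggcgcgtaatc

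There were 2 such matches before Flt1, 1 each before Kdr and Nrp2 and 0 before Flt4. Of 27025 mouse promoters of the same length, 52.1% held at least 1 match, so these letters are common. The letters GGGCGG, the GC box bound by SP factors, were found 3 times before Flt1, 2 times before Kdr, 3 times before Flt4 and 5 times before Nrp2, and in 33.0% of all promoters. The letters ACGTG, the core of hypoxia-inducible factor sites, were found before none of these 4 genes and in 16.5% of all promoters. A match is a description of the letters in this window, not a binding site.

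The libraries held 1516, 2832, 4662 and 6209 kept cells for sham, for isotype after stroke, for VCAM1 blockade and for VLA4 blockade in turn, an order used for all values given together below. Total UMIs in kept cells ran from 9892316 to 33386331 and the median per cell from 4516.5 to 5466. Between 11 and 69 cell barcodes of a library also occurred in another one. Scrublet marked 0.590% to 1.96% of cells as doublets, and these were left out. Endothelial-like cells numbered 548, 645, 2378 and 3042, or 36.1%, 22.8%, 51.0% and 49.0% of kept cells, and microglia-like cells 692, 1480, 1816 and 2461. All 10 endothelial markers were found in endothelial-like cells of each library, at a summed level of 16774 to 17886 CPM (UMIs of a gene scaled to 1000000 UMIs of the class). Border macrophage-like and T cell-like cells were the other classes with at least 50 cells in every library. The T cell-like class may also hold natural killer cells, and 119 of its 636 cells showed 2 or more natural killer markers. Such markers alone do not name a cell, and a clustering with doublets kept set apart a natural killer cluster of 46 cells. With 1 library in each group there was no replicate error and no test across samples was possible: each 95% interval below reflects counting error alone, and each difference is one between libraries.

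The 3 receptor tyrosine kinases were carried almost wholly by endothelial-like cells. Of 181638 Flt1 UMIs in all kept cells, 91.9% were in that class, of 19536 Kdr UMIs 90.1%, and of 2168 Flt4 UMIs 92.0%. Vegfc, with 91.4% of 1845 UMIs, was the ligand with the same main source. Vegfb, the ligand of VEGFR1 linked to fatty acid uptake and vessel survival, was mainly microglial: 70.8% of its 3748 UMIs were in microglia-like cells and 17.6% in endothelial-like cells. The co-receptors were divided. Nrp1 had 47.5% of its 16435 UMIs in endothelial-like cells, 36.4% in microglia-like cells and 8.09% in border macrophage-like cells, while Nrp2 had 60.1% of its 4112 UMIs in microglia-like and 30.6% in endothelial-like cells. These shares also follow the number of cells of each class that were captured.

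Vegfa, the central ligand of the family, was nearly missing from these libraries, with 140 UMIs in all kept cells. Of these, 49 UMIs (35.0%) were in the 111 astrocyte-like cells, which made up 0.729% of kept cells, 45 were in microglia-like cells and 17 in endothelial-like cells. The astrocyte-like cells held 12, 12, 19 and 6 Vegfa UMIs in the 4 libraries, and a single cell gave 15 of the 19 after anti-VCAM1 and another 7 of the 12 in sham. No order of the libraries can be read from so few cells. Pgf, a VEGFR1 ligand of low level in healthy tissue, had 53 UMIs: 16 in endothelial-like cells, 16 in pericyte-like cells, 9 in an unnamed cluster with both pericyte and endothelial markers, and 7 in a single astrocyte-like cell. In endothelial-like cells its UMIs numbered 0, 0, 3 and 13, with 10 of the 13 in 1 cell.

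**Figure D1:**
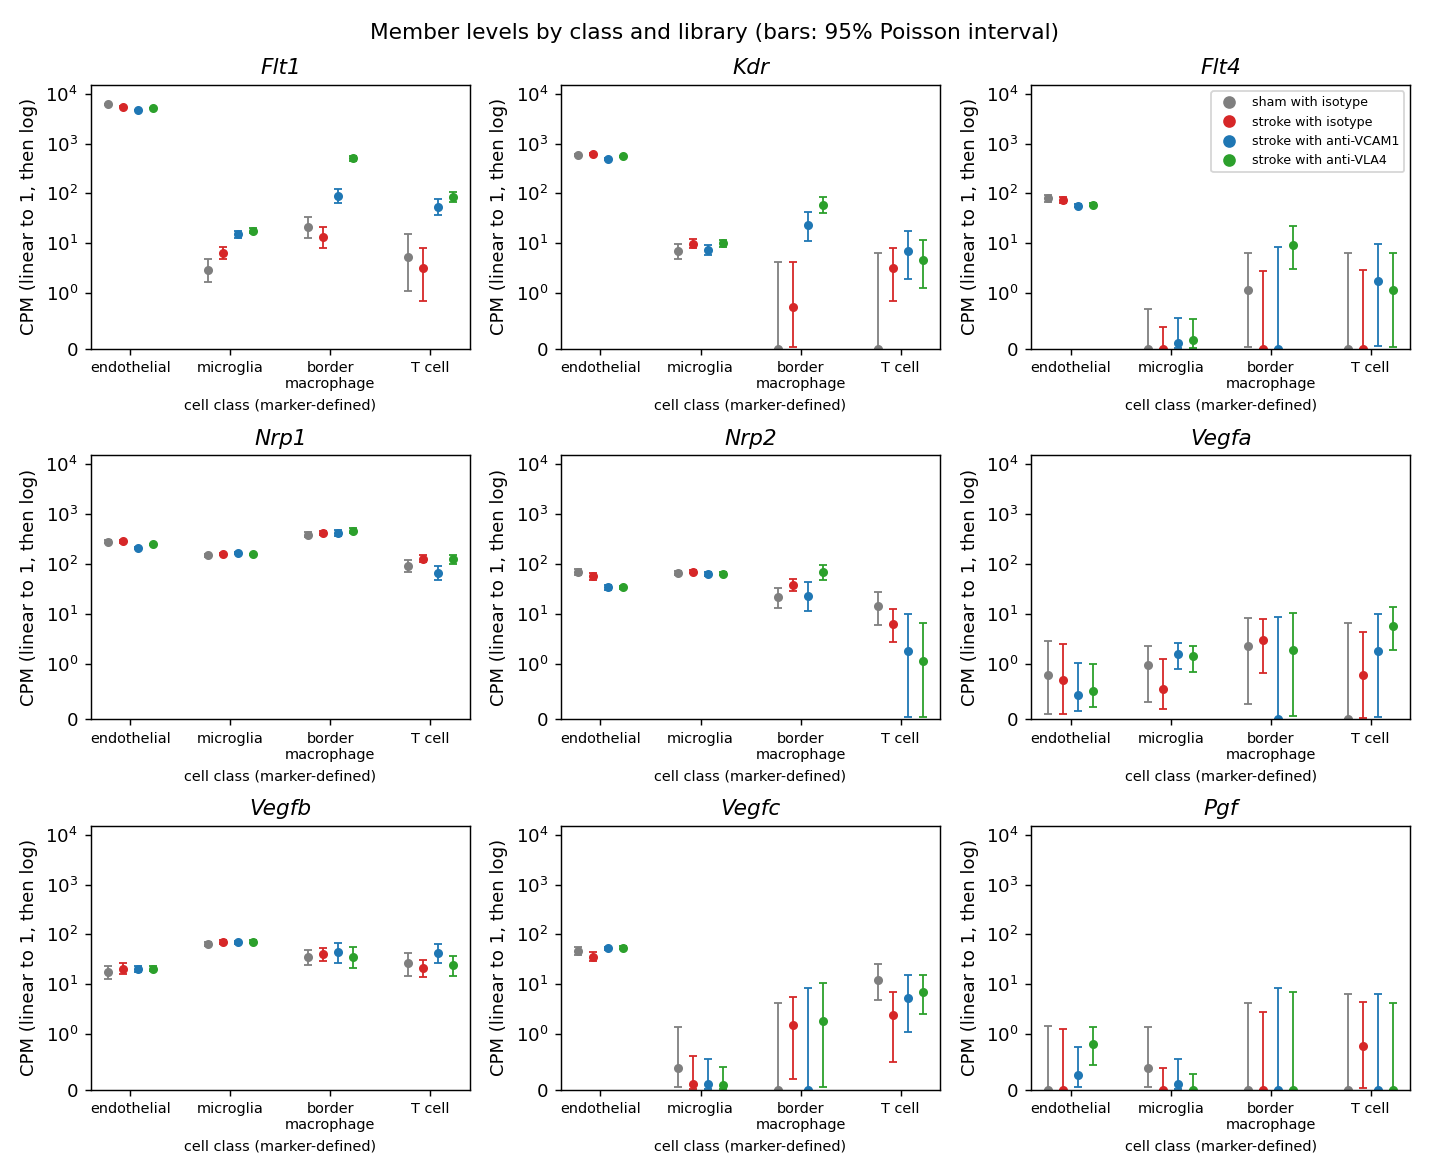
Levels of the 9 genes in the 4 cell classes with at least 50 cells in every library. The y axis is CPM of the class's UMIs (linear up to 1, then logarithmic), colours are the 4 libraries and bars are 95% Poisson intervals. Flt1, Kdr and Flt4 are highest in endothelial-like cells, Vegfb in microglia-like cells and Nrp1 in border macrophage-like cells.

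In endothelial-like cells Flt1 was at 6144 CPM (6048 to 6242) in sham, 5513 (5427 to 5600) after stroke with isotype, 4777 (4737 to 4818) after anti-VCAM1 and 5138 (5103 to 5174) after anti-VLA4. Sham was highest, anti-VCAM1 lowest, and no interval overlapped another. The log2 ratios (on the scale of CPM plus 1) were -0.16 (-0.19 to -0.12) in the comparison of stroke over sham, -0.21 (-0.23 to -0.18) in that of anti-VCAM1 over isotype after stroke, and -0.10 (-0.13 to -0.077) in that of anti-VLA4 over the same isotype library. The blockade comparisons, here and below, thus share a library. For Flt1 after anti-VLA4 the sign depended on scaling, and the ratio was 0.06 with TMM factors.

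Kdr stood at 587 CPM (558 to 618), 607 (579 to 636), 492 (479 to 505) and 556 (544 to 567). The isotype libraries overlapped, and the anti-VCAM1 library lay below the other 3. Its log2 ratio was 0.05 (-0.05 to 0.15) in the stroke comparison, -0.30 (-0.38 to -0.23) with anti-VCAM1, and with anti-VLA4 -0.13 (-0.20 to -0.052), which turned to 0.03 with TMM factors. Kdr UMIs per 100 Flt1 UMIs, a measure free of the class total, were 9.56, 11.0, 10.3 and 10.8. The ratio of the signalling receptor to its competitor was lowest in sham, whose interval (9.05 to 10.1) met that of anti-VCAM1 (10.0 to 10.6). Flt4, the VEGF-C receptor, stood at 79.2 CPM (68.5 to 91.0), 74.4 (64.7 to 85.1), 56.9 (52.6 to 61.4) and 59.2 (55.4 to 63.1). Both isotype libraries were above both blockade libraries, and the log2 ratios were -0.09, -0.38 (-0.61 to -0.16) and -0.33 (-0.55 to -0.11).

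Nrp1, which presents VEGF-A to VEGFR2, was at 280 CPM (260 to 302), 286 (267 to 306), 211 (203 to 220) and 246 (238 to 253). The isotype libraries overlapped and lay above both blockade libraries, with log2 ratios of 0.03, -0.44 (-0.55 to -0.32) and -0.22 (-0.33 to -0.11). Nrp2 had the largest difference of the receptors and co-receptors. It was at 69.2 CPM (59.3 to 80.3) in sham, 56.5 (48.1 to 65.9) after stroke with isotype, 34.0 (30.7 to 37.5) after anti-VCAM1 and 33.8 (31.0 to 36.8) after anti-VLA4. The isotype libraries overlapped each other, as did the blockade libraries, and the pairs stood apart. Pericyte markers in the same cells split by the same pairs in the other direction. They were at 125, 130, 234 and 237 CPM over 9 markers, with 1 at 0 in sham and none elsewhere. B cell markers, at 1610, 1466, 1080 and 1013 CPM, and dendritic markers, at 203, 174, 121 and 122, split in the direction of Nrp2. In each of these 2 lists 2 to 4 of 7 markers were at 0. Border macrophage markers, at 47.7, 54.7, 30.9 and 33.9 CPM, split in that direction too, with 1 to 5 of 8 at 0. Monocyte markers did likewise, at 699, 587, 530 and 521 CPM, with 2 to 3 of 6 at 0. The 5 erythrocyte markers, none at 0, stood at 274, 2599, 1968 and 2050 CPM. Their part in the endothelial differences was not tested. The log2 ratio of Nrp2 was -0.29 (-0.61 to 0.02) for stroke and -0.72 in both blockade comparisons, with an interval of -1.0 to -0.46 in the first and -1.0 to -0.48 in the other. Nrp2 UMIs per 100 Nrp1 UMIs were 24.7, 19.8, 16.1 and 13.8.

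Of the ligands, Vegfc ran the other way. Its endothelial level was 46.9 CPM (38.9 to 56.2) in sham, 35.8 (29.2 to 43.4) after stroke with isotype, 52.8 (48.7 to 57.2) after anti-VCAM1 and 54.7 (51.1 to 58.4) after anti-VLA4. Stroke with isotype was lowest, below both blockade libraries and overlapping sham. The log2 ratios of Vegfc were -0.38 (-0.79 to 0.003), 0.55 (0.26 to 0.88) and 0.60 (0.31 to 0.92). Vegfb stood at 17.5, 20.7, 20.1 and 20.7 CPM, from 44, 59, 230 and 327 UMIs, with overlapping intervals in all 4 libraries.

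**Figure D2:**
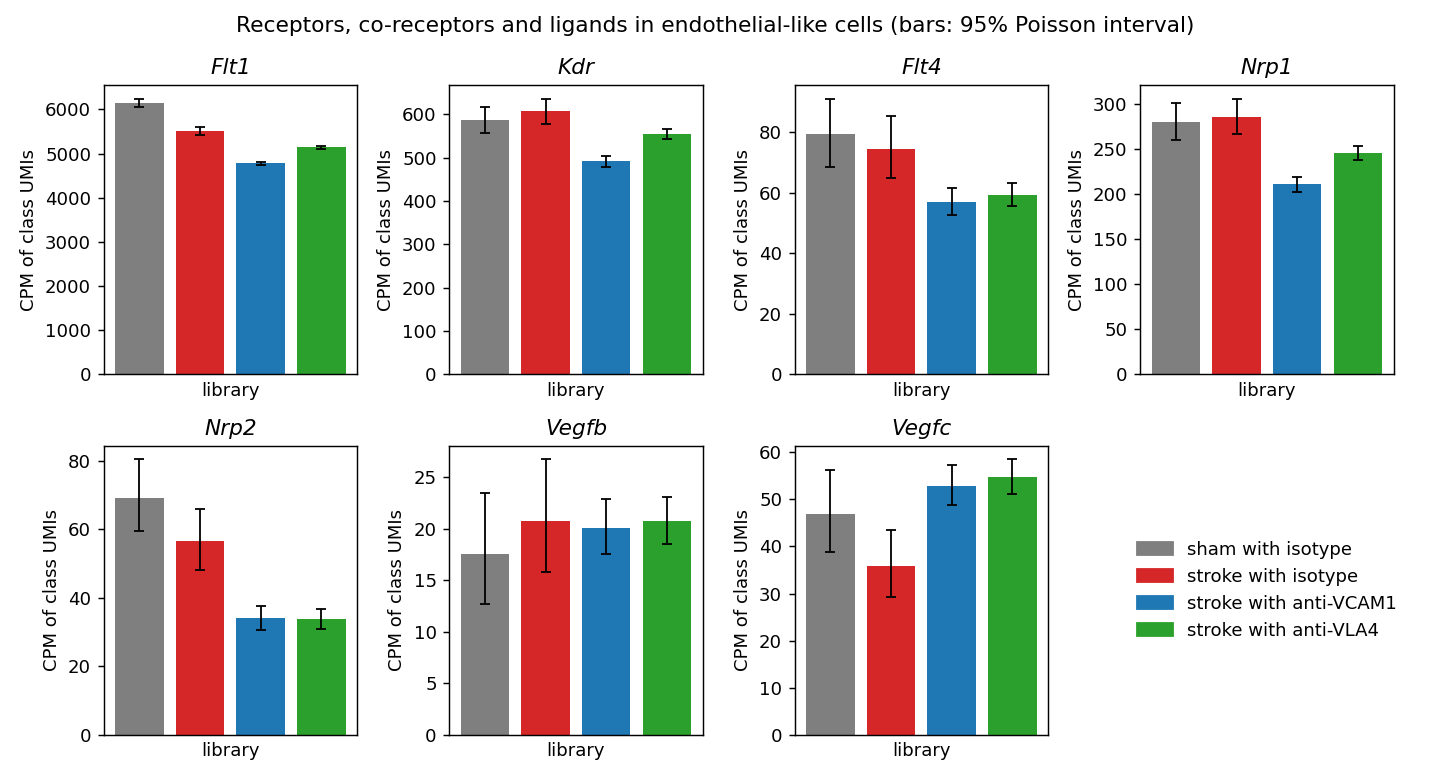
Levels of 7 genes in endothelial-like cells. The y axis is CPM of the class's UMIs (from 0), each bar is 1 library in the colour of the key, and error bars are 95% Poisson intervals. Nrp2 stands at 69.2 and 56.5 CPM in the isotype libraries and at 34.0 and 33.8 CPM in the blockade libraries, while Vegfc is lowest, at 35.8 CPM, after stroke with isotype.

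Counts at a log2 ratio of at least 0.5 either way were taken over the 7 members with at least 50 UMIs in the 2 libraries compared. In the stroke comparison 0 of 7 were higher and 0 lower, where of the 8891 genes with that many UMIs 4.09% were higher and 4.54% lower. With anti-VCAM1 1 of 7 was higher, Vegfc, against 3.22% of 10493 genes, and 1 lower, Nrp2, against 9.82%. With anti-VLA4 Vegfc was again the 1 higher, against 3.46% of 10819 genes, and Nrp2 the 1 lower, against 11.6%. By the other criterion, an interval that leaves 0, the counts were 1 of 7, 6 of 7 and 6 of 7, against 19.9%, 35.5% and 37.1% of all genes. This criterion is easier to meet for genes with many UMIs, so these counts and shares are not like for like. After anti-VLA4, Flt1 and Kdr met it at ratios of -0.10 and -0.13, the 47.1 and 44.3 percentiles of all genes. Of the genes past 0.5, the share that was higher depended on scaling: 47.4%, 24.7% and 23.0% with total UMIs, and 58.0%, 63.6% and 64.2% with TMM factors, which moved the median ratio of all genes from -0.03 to 0.01, from -0.07 to 0.07 and from -0.08 to 0.07. With TMM factors Nrp2 was at -0.58 and -0.57 and Vegfc at 0.69 and 0.75 in the blockade comparisons, so both kept their side of the threshold under either scaling.

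**Figure D3:**
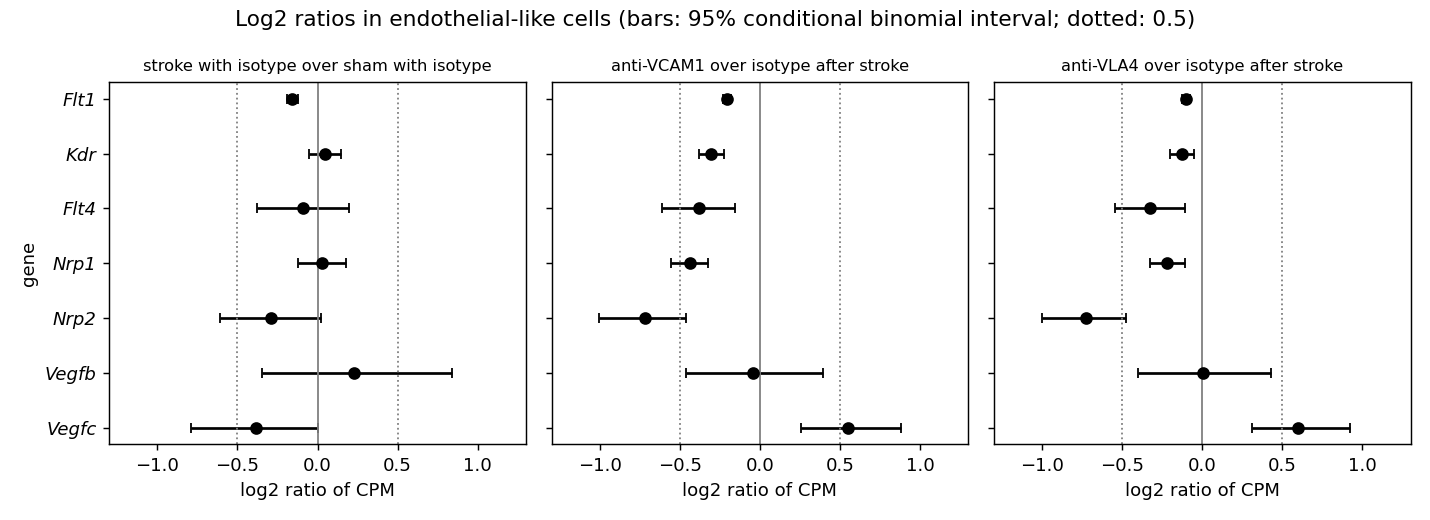
Log2 ratios of the members in endothelial-like cells in the 3 comparisons. The x axis is the log2 ratio of CPM plus 1, points are genes, bars are 95% counting intervals and dotted lines mark 0.5 either way. Nrp2 lies at -0.72 in both blockade comparisons and Vegfc at 0.55 and 0.60.

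Gene length and nuclear RNA varied with the libraries. In the anti-VCAM1 and anti-VLA4 comparisons the median log2 ratio of genes spanning 100 kb or more was -0.37 and -0.40, while for genes under 10 kb it was 0.18 and 0.17. Flt1 (164 kb), Nrp1 (145 kb), Nrp2 (115 kb) and Vegfc (109 kb) are in the long group, Kdr (45.6 kb) and Flt4 (43.5 kb) are not, and Vegfb spans 5.18 kb. With the span trend removed, Nrp2 was at -0.47 and -0.46, inside the threshold, Vegfc stayed past it, and Flt1 turned to 0.09 and 0.23 and Nrp1 after anti-VLA4 to 0.09. In the stroke comparison the median was -0.14 for genes of 100 kb or more and 0.097 for genes under 10 kb. There Flt1 moved from -0.16 to -0.03 with the span trend removed. An endothelial-like cluster with little Malat1, a nuclear transcript, held 15, 36, 488 and 669 cells. Without it and the other cluster lowest in Malat1, Nrp2 was at -0.71 and -0.70 and Vegfc at 0.72 and 0.75 in the blockade comparisons.

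The members were also laid along the vessel bed. Endothelial-like cells were clustered again without the members or the pathway lists, and sub-clusters were named from zone markers. One sub-cluster was arterial, with Hey1, Gja4, Gkn3, Mgp, Sema3g and Bmx, and one was venous, with Il1r1, Vcam1, Vwf, Nr2f2 and Slc38a5 among its markers. No sub-cluster took the capillary name, so all other cells are called not named. They pool several sub-clusters whose mix differed between libraries. One with little Malat1 held 7, 30, 422 and 553 of them, and another held 101, 91, 146 and 148. Arterial cells numbered 40, 52, 319 and 483, or 7.30%, 8.06%, 13.4% and 15.9% of endothelial-like cells, and venous cells 90, 90, 224 and 304.

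Vegfc was the arterial ligand. Its arterial level was 265 CPM in sham, 222 after stroke with isotype, 227 after anti-VCAM1 and 233 after anti-VLA4, from 51, 50, 423 and 648 UMIs. In not named cells it was 26.1, 18.9, 19.2 and 16.5 CPM, and in venous cells 40.4, 24.9, 17.4 and 16.6. Arterial over not named was thus a log2 ratio of 3.29 to 3.75 over the libraries. Within arterial cells the log2 ratio was -0.25 (-0.85 to 0.34) in the stroke comparison, 0.03 (-0.40 to 0.48) with anti-VCAM1, and with anti-VLA4 0.07 (-0.35 to 0.51). Within not named cells it was 0.02 (-0.47 to 0.55) and -0.19 (-0.69 to 0.32) in the blockade comparisons. The class-wide Vegfc difference of 0.55 and 0.60 was therefore not seen within either zone, while the arterial share of endothelial-like cells was 8.06% after stroke with isotype and 13.4% and 15.9% after blockade. With the arterial, venous and not named cells weighted equally, Vegfc was at -0.02 and 0.00 in those comparisons.

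Nrp2 was the venous co-receptor. Venous cells held 191, 165, 104 and 107 CPM, not named cells 46.4, 42.3, 29.6 and 28.0, and arterial cells only 2, 1, 12 and 22 UMIs. The lower level after blockade was present within venous cells, at -0.66 (-1.10 to -0.21) with anti-VCAM1, and with anti-VLA4 at -0.62 (-1.03 to -0.20). It was present in the pooled not named cells too, at -0.50 (-0.86 to -0.16) and -0.58 (-0.93 to -0.25). Over all libraries Nrp2 was at 24.7 CPM in their sub-cluster with little Malat1 and at 61.6 CPM in the other one described above. The part of that mix in the not named ratios was not tested. For stroke over sham the venous ratio was -0.21 (-0.70 to 0.27). Venous cells were 16.4% and 14.0% of endothelial-like cells in the isotype libraries and 9.42% and 9.99% in the blockade libraries.

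The other receptors were lower in arterial than in not named cells. Nrp1 was at 125, 133, 117 and 124 CPM in arterial cells and at 298, 306, 220 and 267 in not named cells. In venous cells Nrp1 was at 276, 259, 289 and 298 CPM, with log2 ratios of 0.16 and 0.20 in the blockade comparisons. Its lower level after blockade was thus seen in the pooled not named cells (-0.47 and -0.20) and not in venous cells. Among not named cells Nrp1 was at 181 CPM in the sub-cluster with little Malat1 and at 481 CPM in the other one described above. The part of that mix was not tested. Kdr was at 234, 320, 344 and 343 CPM in arterial cells and at 636, 629, 520 and 602 in not named cells. Venous cells held Kdr at 536, 646, 525 and 597 CPM, with an interval that overlapped that of the not named cells in every library. The direct log2 ratio of venous over not named was -0.25 (-0.45 to -0.045) in sham, and its interval held 0 in each stroke library. Arterial Flt1 was at 3817, 4453, 4422 and 4818 CPM, against 6652, 5727, 4847 and 5195 in not named cells, so that the zones were farther apart in sham than after blockade. For stroke over sham the Flt1 log2 ratio was 0.22 (0.084 to 0.36) in arterial cells and -0.03 (-0.12 to 0.06) in venous cells. In not named cells that Flt1 ratio was -0.22 (-0.25 to -0.18). Flt4 had 4, 11, 71 and 138 UMIs in arterial cells, too few in the isotype libraries to rank.

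**Figure D4:**
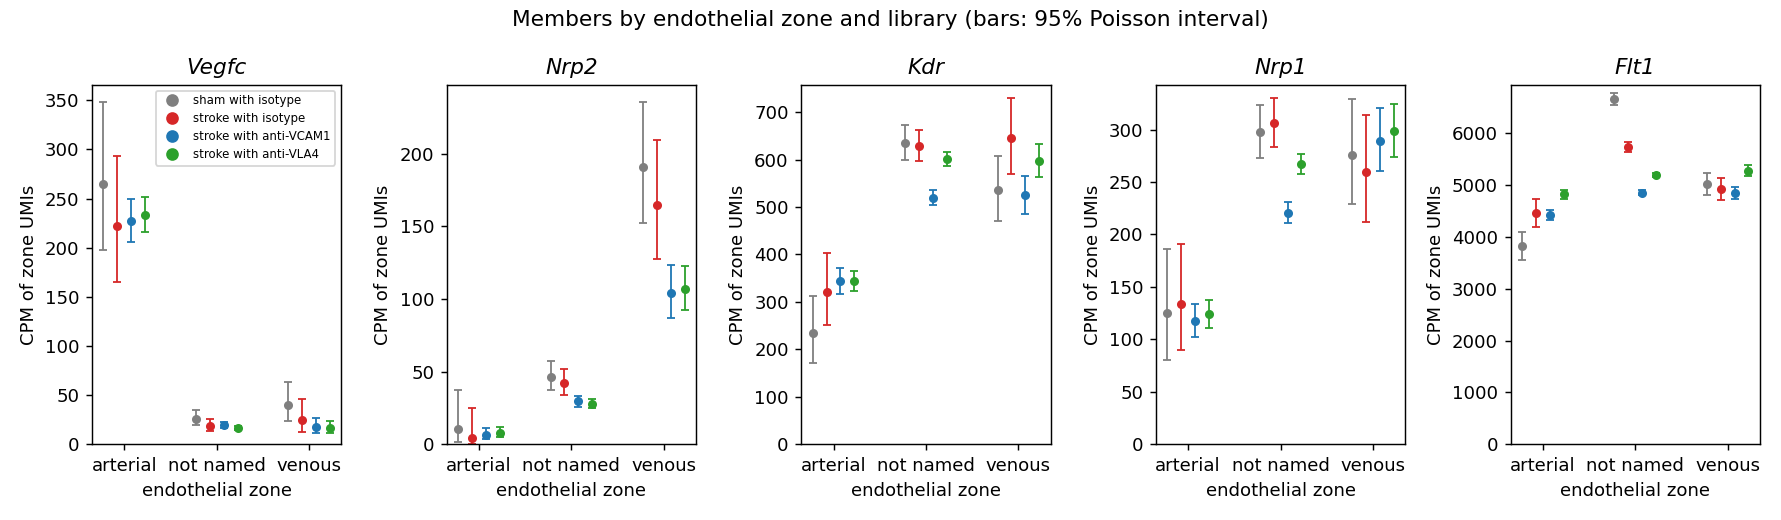
Levels of members in the arterial, venous and not named sub-clusters of endothelial-like cells. The y axis is CPM of the sub-cluster's UMIs, colours are the 4 libraries and bars are 95% Poisson intervals. Vegfc is at 222 to 265 CPM in arterial cells and Nrp2 at 104 to 191 CPM in venous cells.

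To compare how many endothelial-like cells held a UMI, every cell was first reduced at random to 1000 UMIs. Flt1 was found in 97.2%, 98.0%, 96.0% and 97.3% of the thinned cells, and in 98.7%, 98.6%, 98.9% and 99.1% unthinned. Kdr was found in 37.2%, 43.0%, 36.6% and 40.2%, Nrp1 in 21.1%, 23.9%, 17.0% and 20.0%, and Nrp2 in 5.64%, 5.90%, 3.57% and 3.44% of thinned cells. Unthinned, Kdr was in 74.8% to 79.4%, Nrp1 in 48.4% to 55.9% and Nrp2 in 11.3% to 17.5%. T cell-like cells, which should lack Flt1, had a thinned Flt1 share of 1.39%, 0%, 2.78% and 2.55%, where 0 of 243 cells allows, at 3 counts of the total, a share of up to 1.23%. Their thinned Kdr share was 0%, 0.823%, 0.926% and 0%, and their Nrp1 share 6.94%, 9.88%, 8.33% and 9.18%. The median depth was 3859 to 5726 UMIs in T cell-like cells and 3789 to 4365 in endothelial-like cells. In every library the endothelial shares of Flt1 and Kdr lay above those of T cell-like cells by more than their intervals. For Nrp1, which T cell-like cells also held, with or without a Cd4 UMI, the endothelial share was higher in each library, by a smaller margin.

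Outside the endothelium the co-receptors and Vegfb had levels of their own. Nrp1 in microglia-like cells was at 149, 160, 163 and 155 CPM, and in border macrophage-like cells at 387 (347 to 430), 422 (388 to 459), 420 (361 to 486) and 465 (409 to 526). In each library border macrophage-like cells were highest for Nrp1, followed by endothelial-like, microglia-like and T cell-like cells, with the microglia-like and T cell-like intervals overlapping only after anti-VLA4. Nrp2 in microglia-like cells was at 65.7, 70.2, 62.9 and 63.3 CPM. The microglial and endothelial Nrp2 intervals overlapped in both isotype libraries and did not in either blockade library. Vegfb in microglia-like cells was at 64.8, 70.1, 69.6 and 72.1 CPM, above its endothelial level in every library.

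In microglia-like cells 5 members had enough UMIs, and Nrp1, Nrp2 and Vegfb had log2 ratios from -0.16 to 0.11 over the 3 comparisons. Kdr was low there, at 7.02, 9.78, 7.34 and 9.92 CPM. Flt1 passed 0.5 in each comparison, 1 of 5 members each time against 5.84%, 3.76% and 5.41% of all genes, with levels of 2.93, 6.45, 15.2 and 18.0 CPM. The 10 endothelial markers summed to 38.4, 31.1, 84.4 and 97.6 CPM in the same cells with none at 0, and their part in the Flt1 result was not tested. Kdr UMIs per 100 Flt1 UMIs were 240, 152, 48.4 and 55.2 in microglia-like cells, against 9.56 to 11.0 in endothelial-like cells, and Flt1 UMIs per 100 Cldn5 UMIs were 78.9, 353, 117 and 139, against 188, 185, 134 and 148. The Flt1 to Cldn5 ratio in microglia-like cells was thus near the endothelial one in both blockade libraries, while the Kdr to Flt1 ratio was not. Among the microglia-like clusters Nrp2 ranged from 20.1 CPM (10.4 to 35.1) in a cluster of 188 cells to 112 CPM (98.6 to 126) in one of 760 cells, and Vegfb from 22.7 to 127 CPM.

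In border macrophage-like cells Nrp2 was at 21.5 (12.9 to 33.6), 38.5 (28.7 to 50.6), 23.2 (11.1 to 42.6) and 67.5 CPM (47.3 to 93.4). The log2 ratios were 0.81, -0.71 and 0.79, from no more than 51 UMIs in any library. The counts past 0.5 were 1 of 3, 2 of 4 and 2 of 4, where 15.5%, 20.0% and 23.5% of all genes passed. Flt1 in that class was at 21.5, 13.6, 90.4 and 506 CPM, beside endothelial markers at 39.6, 33.2, 250 and 1586 CPM. Kdr UMIs per 100 Flt1 UMIs in border macrophage-like cells were 0 (0 to 21.4), 5.56 (0.133 to 35.2), 25.6 (11.4 to 52.3) and 11.9 (7.95 to 17.1). The Flt1 UMIs there numbered 19, 18, 39 and 270, and endothelial-like cells had ratios of 9.56, 11.0, 10.3 and 10.8. Flt1 and the markers moved together, and the markers' part in the Flt1 and Nrp2 results was not tested. T cell-like cells held Nrp1 at 92.9, 128, 66.9 and 123 CPM, and the log2 ratio for anti-VCAM1 was -0.93 (from 38 and 162 UMIs). Over all libraries Nrp1 was at 308 CPM in the 67 of these cells with a Cd4 UMI and at 84.3 CPM in the rest. Cells with a Cd4 UMI were 8 of 73, 42 of 249, 6 of 112 and 11 of 202 in the 4 libraries. Their part in the Nrp1 ratios was not tested. The counts past 0.5 in T cell-like cells were 0 of 1, 2 of 2 (Nrp1 and Vegfb) and 1 of 2 (Flt1), against 28.1%, 19.8% and 19.8% of all genes. Flt1 was at 5.26, 3.16, 54.6 and 85.3 CPM there, beside endothelial markers at 182, 228, 407 and 406 CPM.

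Pericyte-like cells were few, 10, 14, 57 and 92 in the 4 libraries, and held 1, 0, 8 and 7 Pgf UMIs. Their Flt1 UMIs numbered 11, 125, 1010 and 1772, beside endothelial markers at 1181, 6347, 8440 and 8459 CPM in the same cells, with 1 of the 10 markers at 0 in sham and none elsewhere. The part of endothelial RNA in that Flt1 signal was not tested, and no ratio was taken.

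Over 20 points, each a class in a library with at least 50 cells, so that points share libraries and depth, the genes most alike in log2 CPM were as follows. For Flt1 they were Adgrf5, Timp3 and Ptprb, each with a Pearson r of 0.99. For Kdr they were Bsg, Slc9a3r2 and Cav1 at 0.97, and for Flt4 1700018A04Rik, Rcan2 and Grb10 at 0.98 to 0.99. Vegfc was most like Utrn, Ldha and Myl12a at 0.96, and Selenos and Abl1 were among the 3 genes most like Vegfb, both at 0.92. Nrp1 was most like Trpv4, Wwp1 and Ocrl, at 0.93, 0.86 and 0.84, and Nrp2 most like Acvr1, Baz2b and Gng12, at 0.93, 0.91 and 0.90. Between members, Flt4 had an r of 0.94 with Flt1, 0.90 with Kdr and 0.88 with Vegfc, while Nrp2 had 0.18 with Flt4. Vegfa and Pgf had under 200 UMIs and were not ranked.

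The rest of the pathway was read in 5 lists in endothelial-like cells. The shares of all genes past 0.5 given above apply to each list: 4.09% higher and 4.54% lower in the stroke comparison, 3.22% and 9.82% with anti-VCAM1, and with anti-VLA4 3.46% and 11.6%. Among 10 other ligands of these receptors, 3 were tested, and Vegfd, the close relative of Vegfc, was at 24.3, 22.8, 12.1 and 10.0 CPM. Its log2 ratio was -0.86 after anti-VCAM1 and -1.11 after anti-VLA4, the only one of the 3 past 0.5. Sema3c, a semaphorin that signals through neuropilins, was at 1198, 899, 789 and 678 CPM, with log2 ratios of -0.41, -0.19 and -0.41. Of 24 receptor partners, 0 of 19 passed in the stroke comparison and 3 of 21, all lower, in each blockade comparison: Plxna4 (a plexin that pairs with neuropilins), Itgav (an integrin chain) and Cd63, the last named after its values were seen. That count is near the share of all genes that were lower. Plxna4 was at 43.0, 41.4, 24.5 and 18.1 CPM, with log2 ratios of -0.73 and -1.15 after blockade. With the span trend removed Plxna4 after anti-VCAM1 was at -0.29, inside the threshold. Itgav, at -0.79 and -0.78, was at -0.11 and -0.18 in cells thinned to 1000 UMIs. Cdh5, the adherens junction cadherin that binds VEGFR2, was at 502, 498, 485 and 489 CPM, and was also named after its values were seen.

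Of 40 cytoplasmic signalling genes, 1 of 35 was higher and 4 were lower in the stroke comparison, with the kinase Prkcb (-0.51, and -0.36 with the span trend removed) among the lower. Shb and Nck2, both lower, and Plcg2, higher, were named after their values were seen. In each blockade comparison 0 of 37 were higher and 1 lower, Plcg2 (named after its values were seen). Plcg1, the phospholipase that docks on VEGFR2, was at 101, 94.7, 70.3 and 67.1 CPM, with log2 ratios of -0.43 and -0.49. The list medians were -0.07, -0.14 and -0.22, beside -0.03, -0.07 and -0.08 for all genes. Of 20 genes that VEGF induces in endothelium, 1 of 11 was higher and 3 lower in the stroke comparison, Nr4a2 the farthest at -1.06 (85.9 CPM in sham, 40.7 after stroke). Nr4a1 (-0.54, and 0.06 in thinned cells) and Egr3 were the other lower genes and Angpt2 the higher one, with Egr3 and Angpt2 named after their values were seen. After each blockade 2 of 14 were higher and 1, Egr3, was lower. Plaur, the urokinase receptor, at 62.5, 46.3, 78.4 and 61.3 CPM, passed after anti-VCAM1 with 0.75. Adm (adrenomedullin) was at 16.7, 17.9, 26.0 and 39.1 CPM, with log2 ratios of 0.52 and 1.08, the first of which was 0.26 with the span trend removed. Dll4, the Notch ligand of arterial and tip cells, was at 67.2, 51.6, 65.7 and 75.9 CPM, with 0.55 after anti-VLA4, which was 0.31 in thinned cells.

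Of the 20 transcription factors that act on these ligands and receptors, 17 were tested and 1 passed 0.5 in every comparison, Sox18, a SOXF factor of vascular and lymphatic endothelium. Sox18 was at 428, 164, 438 and 410 CPM, so that stroke with isotype was low and the other 3 alike in level. The log2 ratios of Sox18 were -1.38 (-1.55 to -1.23) in the stroke comparison, 1.42 (1.28 to 1.56) with anti-VCAM1, and with anti-VLA4 1.32 (1.19 to 1.46). The low library was low in arterial cells (650, 187, 632 and 535 CPM), venous cells (352, 120, 297 and 274) and not named cells (423, 169, 416 and 401) alike. Klf2, a shear stress factor that restrains Kdr, was at 2128, 1890, 2596 and 2558 CPM, with 0.46 after anti-VCAM1 and 0.44 after anti-VLA4. With the span trend removed Klf2 was at 0.20 in each of these comparisons.

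**Figure D5:**
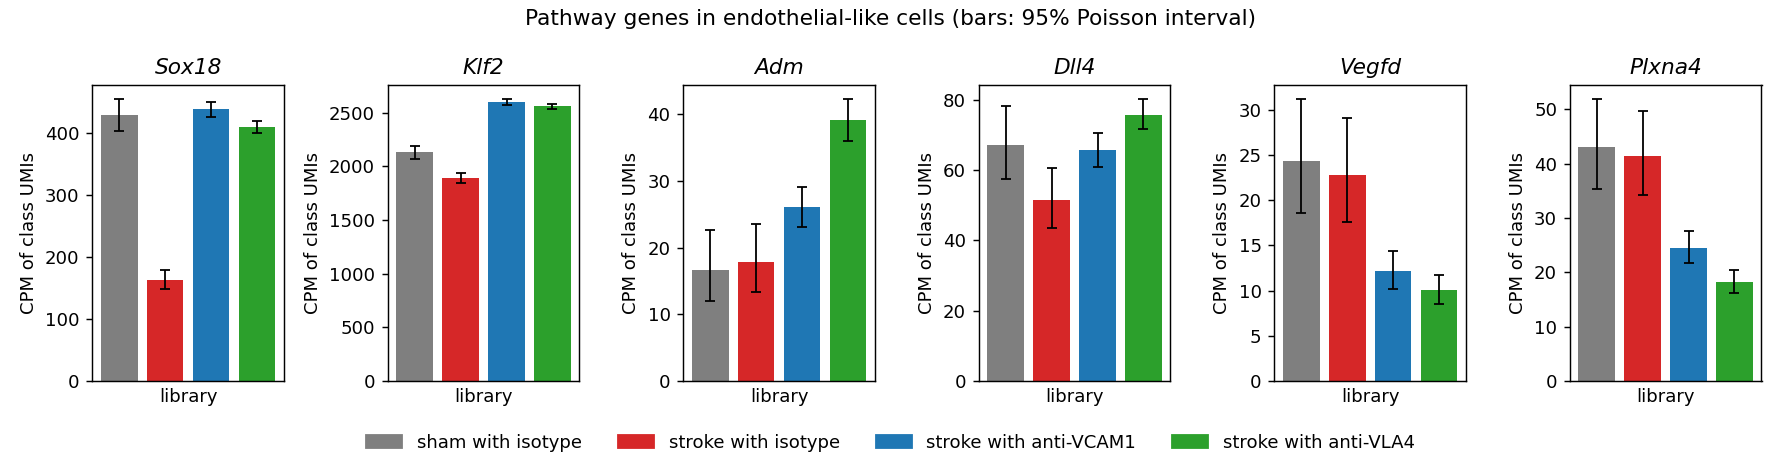
Levels of Sox18, Klf2, Adm, Dll4, Vegfd and Plxna4 in endothelial-like cells. The y axis is CPM of the class's UMIs (from 0), each bar is 1 library in the colour of the key, and error bars are 95% Poisson intervals. Sox18 stands at 164 CPM after stroke with isotype and at 410 to 438 CPM in the other libraries, while Vegfd and Plxna4 are lower in both blockade libraries than in both isotype libraries.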

How the data were processed

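The data were Chromium 3′ single-cell RNA libraries, 1 for each of 4 groups named by the sample titles. The deposited matrices hold unnormalized UMI counts for called cells. Per the file headers, Cell Ranger 7.0.1 wrote them. The submitters' processing notes list Cell Ranger 6.0.0, Seurat 4.3.0.1 and the builds mm10 and GRCh38 without saying what each was used for. The members, pathway lists and markers were chosen with earlier results of these data known.

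Cells with at least 500 UMIs, 200 genes and at most 10% mitochondrial UMIs were kept, and cells marked by Scrublet (expected rate 0.05) were removed. One joint Leiden clustering (resolution 1, 15 neighbours, 30 principal components, 2000 variable genes) was made without the members and pathway lists. A cluster was named from at least 3 detected markers. Markers found in under 25% of cells of every cluster counted as 0, a rule settled after the clusters had been seen. UMIs were added up within each class of a library and expressed as CPM. Log2 ratios used a pseudocount of 1 CPM and genes with at least 50 UMIs over the 2 libraries. The 95% intervals are exact Poisson for levels, exact Clopper-Pearson for shares and, leaving the pseudocount aside, conditional binomial for ratios. The ratio script was tested on simulated data.

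Named genes were the 9 members, up to 2 genes of each pathway list with the largest ratio in each comparison (at least 200 UMIs), and the 3 genes most alike in Pearson correlation for each member with at least 200 UMIs; a few genes are not reported here. GENCODE M21 on GRCm38 gave the gene spans, with 32158 of 32285 IDs found in it. Promoters came from RefSeq, matched by symbol for all 9 members. No protein sequence was used here.

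The tools were scanpy 1.11.5 with leidenalg 0.10.2 under Python 3.11.15, scipy 1.17.1 and pandas 2.3.3, and edgeR 4.0.16 under R 4.3.3 for TMM factors only.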

Additional observations from a re-analysis of the deposited data

Results flagged for a closer look

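With 1 library in each group, each difference below is between log2 ratios of 2 classes that had opposite signs, and the difference was not tested. The ratio of Flt1 in microglia-like cells exceeded that in endothelial-like cells by 1.08 for stroke over sham (0.92 against -0.16), by 1.32 for anti-VCAM1 over isotype (1.12 against -0.21) and by 1.45 for anti-VLA4 over isotype (1.35 against -0.10). In border macrophage-like cells the Flt1 ratio exceeded the endothelial one by 2.85 for anti-VCAM1 and by 5.22 for anti-VLA4, and in T cell-like cells by 4.48 for anti-VLA4. Few cells held these UMIs: Flt1 was found in 7 of 63 border macrophage-like cells after anti-VCAM1 and in 15 of 91 after anti-VLA4. In T cell-like cells after anti-VLA4 it was found in 10 of 202. Endothelial markers were also higher in microglia-like, border macrophage-like and T cell-like cells in the blockade libraries than after stroke with isotype. In microglia-like cells they were lower after stroke with isotype than in sham, at 31.1 against 38.4 CPM. The markers' part in the Flt1 differences was not tested. The ratio of Nrp2 for anti-VLA4 was 0.79 in border macrophage-like cells, which exceeded the endothelial ratio of -0.72 by 1.52 and the microglial ratio of -0.15 by 0.94.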

How the results depend on the processing

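No paired analysis was possible because each group was 1 library. Equal weight of arterial, capillary and venous zones was not run, since no sub-cluster took the capillary name; equal weight of the arterial, venous and not named cells, leaving out the 2 clusters lowest in Malat1, and the alternatives for pathway genes were chosen after seeing the data. Of 273 alternatives of the members' log2 ratios, 225 stayed within the counting interval and 41 moved past it with the same sign. The other 7 changed sign, which was counted only where the main interval left 0. Ratios whose interval held 0 could also change sign within it. Vegfb reached -0.057 and Flt4 0.18 for stroke, and Vegfb reached 0.35 after anti-VCAM1 and -0.22 after anti-VLA4. With the span trend removed, Flt1 was at 0.094 after anti-VCAM1 and 0.23 after anti-VLA4, and Nrp1 at 0.089 after anti-VLA4. TMM factors put Flt1 at 0.056 and Kdr at 0.030 after anti-VLA4. Equal weight put Vegfc at -0.015 after anti-VCAM1 and Flt1 at 0.018 after anti-VLA4. The count of 2 members past 0.5 in each blockade comparison became 1 with equal weight (Nrp2) and with the span trend removed (Vegfc), and 0 at a log2 ratio of at least 1. After anti-VLA4 it was also 1 with the mean of CPM per cell (Nrp2). Vegfc after anti-VCAM1 was at 0.10 with the mean of CPM per cell and 0.26 with cells thinned to 1000 UMIs. In that comparison Nrp1 was at -0.53 in the first of these settings and Flt4 at -0.64 in the other. A different member was thus past 0.5 in each setting while Vegfc was not, which the count does not show. Of 390 alternatives of the pathway genes, 341 stayed within the counting interval, 47 moved further and 2 changed sign by the same rule. Those were Nr4a1 for stroke, at 0.064 in thinned cells, and Sema3c after anti-VCAM1, at 0.10 with the span trend removed. Sema3g for stroke, whose interval held 0, reached -0.017 with the span trend removed. Of 36 levels with cells named on their own markers, 8 moved past their interval. Unless the construction of an alternative shows it, the cause was not tested. Vegfa and Pgf had few UMIs in every library, and arterial Flt4 and Nrp2 few in the isotype libraries, so their levels are imprecise.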
